A study of Mus musculus with 2 samples.

Results

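Blood capillary endothelial cells were the cells described here, and they were picked from 2 single-cell libraries of mesenteric CD31+ cells by the UMIs (unique molecular identifiers, 1 per captured RNA molecule) of named genes. A member had at least 2000 UMIs, at most 10% of them mitochondrial, at least 2 UMIs of Cdh5, an endothelial cadherin, and at least 3 UMIs of Gpihbp1, Esm1 and Col13a1 together. Cells with more than 2 UMIs of the cycling genes Mki67 and Top2a, more than 1 of the arterial genes Gja5 and Sema3g, 10 or more of Glycam1, which marks high endothelial venules, or more than 1 of Prox1, the lymphatic transcription factor, were left out. Of 11273 cells in all, 195 were members, of which 124 came from control and 71 from Flcn iΔEC mice. They were part of 549 control and 874 Flcn iΔEC endothelial cells, which passed the same UMI and mitochondrial limits and had the 2 UMIs of Cdh5.

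Capillaries are the exchange vessels of the circulation, and those of fatty tissues such as the mesentery take up lipids from the blood. GPIHBP1 on the capillary endothelium carries lipoprotein lipase to the lumen, where the lipase frees fatty acids that CD36 and the fatty acid binding proteins then pass on. In growing vessel beds some capillary cells become tip cells, which lead new sprouts and express Esm1, while Rgcc and Col13a1 are further genes known from capillary endothelium. FLCN acts with FNIP1 and FNIP2 on Rag GTPases at the lysosome and keeps TFE3, a transcription factor of lysosomal genes, in the cytoplasm.

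Both libraries came from C57BL/6 mice at P8, which had received 4-hydroxytamoxifen under the skin in doses of 40 µg, given first at P2, then at P3.5 and P5, and last at P6.5. The knockout mice, Flcn iΔEC, carried Cdh5-BAC-CreERT2 and Flcn flox/flox, and the Cdh5 promoter drives Cre in blood and lymphatic endothelium alike. The genotype of the control mice beyond the name control was not given in the sources used here. Each library held the pooled cells of 3 mice, isolated with beads against CD31, so that each genotype had 1 library, no test was possible, and all values describe these 2 libraries. Summed counts are given as CPM, a count scaled to the total UMIs of the cells summed. The 95% intervals, in parentheses after a value, are exact and cover counting error only.

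The control members held 1857307 UMIs and the Flcn iΔEC members 1613815, and their median depth was 11180 and 18978 UMIs. The libraries also differed in sex, since Xist had 9 and 63462 UMIs and 4 Y-linked genes together 15535 and 17 UMIs over all cells, so genotype, sex and library preparation cannot be told apart. They shared 6 cell barcodes, of which 0 belonged to members. The 3′ counts cannot check the deletion of Flcn exons, and Flcn (chromosome 11 of GRCm38, 59791408 to 59810016) was at 5.38 CPM for control members and 9.91 CPM for Flcn iΔEC members, a ratio of 1.78 (0.786 to 4.54).

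The rule rested mostly on Gpihbp1 (ENSMUSG00000022579, chromosome 15 of GRCm38, 75596628 to 75599481), since 113 of 124 control and 66 of 71 Flcn iΔEC members had at least 3 UMIs of it alone. Esm1 was present in 44 and 22 members and Col13a1 in 55 and 18. The sum of the 3 genes had a median of 12.5 UMIs in control members, with a highest value of 84, and a median of 17 in Flcn iΔEC members, with a highest value of 213. A single cell held 41.4% of the Esm1 UMIs of the Flcn iΔEC members, against 18.6% for the highest control cell. Just inside the limit, at a sum of 3, lay 10 control and 12 Flcn iΔEC cells, and just outside it, at a sum of 2, lay 14 and 15 cells. Control cells at 3 and at 2 UMIs had 281 and 288 CPM of Rgcc and 361 and 2367 CPM of Mgp, a matrix protein of larger vessels. In the Flcn iΔEC library the same cells had 173 and 64.2 CPM of Rgcc and 3376 and 2938 CPM of Mgp.

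The label was checked with markers that the rule did not use, and a minority of members went against it. In all, 3 control and 11 Flcn iΔEC members held at least 5 UMIs of the lymphatic genes Lyve1, Mmrn1 and Pdpn, and each of them had the 1 Prox1 UMI that the rule still allowed. Another 3 control and 12 Flcn iΔEC members held at least 50 UMIs of Vwf and Mgp, genes of larger vessels. The lymphatic UMIs ended at 1 in the other control members and began at 18, and in the Flcn iΔEC members they ended at 2 and began at 16. For Vwf and Mgp the counts ended at 43 and began at 104 in control, and ended at 36 and began at 52 in Flcn iΔEC members, so the lowest of the latter lay just above the limit. Setting both groups aside, with limits chosen after the data were seen, left 118 control and 48 Flcn iΔEC members, called the remaining members below.

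Rgcc (chromosome 14, 79288756 to 79301645), a cell cycle regulator and the only one of the 4 capillary markers that the rule left out, was present in 114 of 118 control (96.6%) and 48 of 48 Flcn iΔEC cells, at 979 and 804 CPM. In the members with lymphatic UMIs, Rgcc was at 242 CPM in control against 48.8 CPM in Flcn iΔEC, and 4 of the 11 Flcn iΔEC cells held it. Those 11 cells had 1049 CPM of Gpihbp1, 830 of Lyve1, 944 of Mmrn1 and 2855 of Ccl21a, a lymphatic chemokine, and 0 UMIs of Esm1, Col13a1, Aplnr and Col15a1, so that the rule admitted them by Gpihbp1 alone. The 12 Flcn iΔEC cells with Vwf and Mgp had 145 CPM of Gpihbp1, 1586 of Vwf and 5093 of Mgp. After thinning to 5000 UMIs, Rgcc was found in 90.4% of all control and 70.0% of all Flcn iΔEC members, and in 43.8% and 40.1% of non-endothelial cells. Where the text below gives a value for the remaining members, it says so.

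**Figure D1:**
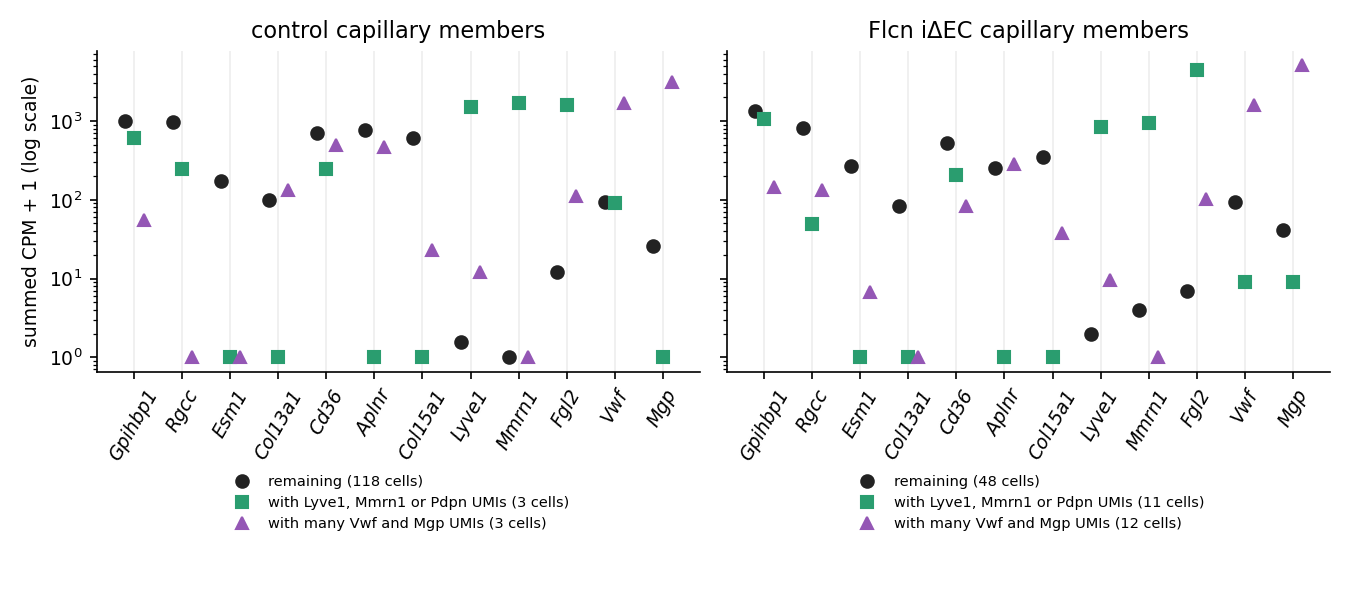
Summed level of 12 genes (CPM plus 1, logarithmic vertical axis) in the remaining members (black circles), the members with lymphatic UMIs (green squares) and the members with Vwf and Mgp UMIs (purple triangles), left for control and right for Flcn iΔEC, without error bars since each point is 1 sum over cells. Gpihbp1 was high in the green squares of both libraries, whereas Aplnr and Col15a1 were at 0 there and high in the black circles. With 0 UMIs of Esm1 and Col13a1, the green squares could pass the rule by Gpihbp1 alone, so their Gpihbp1 level was fixed by it.

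Gpihbp1 was not limited to cells without Prox1. Among all endothelial cells with few cycling and Glycam1 UMIs, whatever their capillary markers, 44 of 92 control cells with at least 3 Prox1 UMIs had at least 3 UMIs of Gpihbp1 (47.8%, 37.3 to 58.5), and so had 151 of 363 Flcn iΔEC cells (41.6%, 36.5 to 46.9). In these Prox1 cells Gpihbp1 was at 271 CPM (249 to 294) for control and at 307 CPM (297 to 318) for Flcn iΔEC. Cells with 0 or 1 Prox1 UMI had 379 CPM (363 to 396) and 301 CPM (289 to 314). Non-endothelial cells held 1.10 and 1.27 CPM of Gpihbp1. The Prox1 limit of the rule left 171 of 237 control and 100 of 305 Flcn iΔEC cells, the largest drop among the limits applied after the marker sum.

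Among endothelial cells, 22.6% (19.2 to 26.3) were capillary members in control, against 8.12% (6.40 to 10.1) for Flcn iΔEC. The Flcn iΔEC library held more Prox1 cells, so the share was also taken over endothelial cells with at most 1 Prox1 UMI, of which members made up 31.2% (26.6 to 36) and 18.3% (14.6 to 22.6). Deeper cells reach lower and upper limits more easily. After each cell was thinned to 5000 UMIs the members were 25.8% (21.6 to 30.3) and 11.9% (9.41 to 14.7) of endothelial cells. After thinning to 2000 UMIs the shares were 21.6% (16.6 to 27.3) and 8.61% (5.54 to 12.6). Thinning also lowers Prox1 counts, so more of the cells met the Prox1 limit. In Flcn iΔEC 387 of 874 endothelial cells met it unthinned and 471 of 616 at 5000 UMIs, and in control 398 of 549 and 366 of 415. The thinned shares therefore do not cover the same cells and are no full check on depth. The remaining members alone were 21.5% (18.1 to 25.2) and 5.49% (4.08 to 7.22) of endothelial cells. The share was lower in the Flcn iΔEC library under each of these settings, and without replicate libraries this difference has no check against the spread between mice. A share also depends on the other cells, and endothelial cells numbered 549 in control and 874 in Flcn iΔEC. Fewer capillary cells in the tissue, a smaller yield of them in the isolate and more of the other endothelial cells cannot be told apart.

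**Figure D2:**
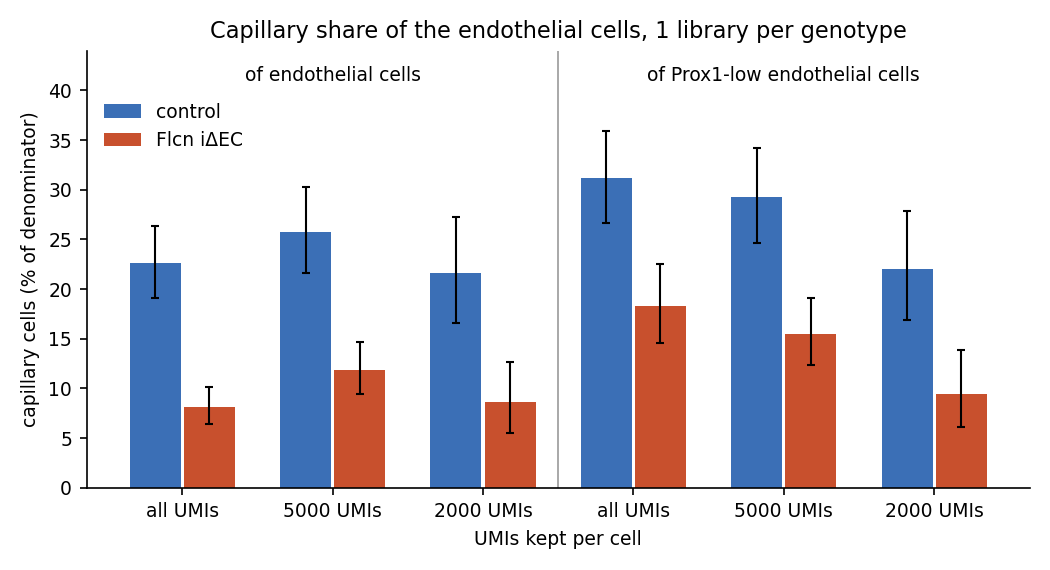
Capillary members as a percentage of endothelial cells (left) and of endothelial cells with at most 1 Prox1 UMI (right), with all UMIs or with each cell thinned to 5000 or 2000 UMIs, for control (blue) and Flcn iΔEC (red). Bars start at 0 and error bars are exact 95% binomial intervals. The control bars reach 22.6% and 31.2% with all UMIs and the Flcn iΔEC bars 8.12% and 18.3%. Thinning also lowers Prox1 counts, so the thinned bars do not cover the same cells.

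The members were then set against the other blood endothelial cells of the same library, which had at most 1 Prox1 UMI and were no members. Since the members were chosen by their genes, these values describe the cells and are no test, and the counts below include Gpihbp1, Esm1 or Col13a1, whose excess the rule itself fixed, where a list holds them. Of 10689 genes with at least 50 UMIs, 1.76% were at least 2-fold higher in members in both libraries and 3.27% at most 0.5-fold. Among 15 other genes known from capillaries, 7 were at least 2-fold higher in both libraries (Cd36, Car4, Cd300lg, Aplnr, Ramp3, Kdr and Emcn) and Tspan7 was lower, and the same 7 were counted with the remaining members, with a background of 2.0%. Rgcc was at 918 CPM in control members and 179 CPM in the other blood endothelial cells, and at 543 and 103 CPM in the Flcn iΔEC library. Cd36, the fatty acid translocase (chromosome 5, 17781690 to 17888801), was at 684 and 270 CPM in control and at 379 and 111 CPM in Flcn iΔEC. Aplnr, the apelin receptor, was at 742 and 199 CPM in control, and at 222 and 107 CPM in Flcn iΔEC. These other cells were pooled, and by detection at the larger thinning depth used above, Aplnr did not set members apart from venous cells. It was found in 82.5% of members, 82.3% of venous and 0% of arterial cells in control. In Flcn iΔEC the shares were 48.6%, 61.2% and 0%. For Cd36 they were 78.9%, 67.7% and 33.8% in control, and 57.1%, 34.1% and 8.85% in Flcn iΔEC.

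Of 23 genes of lipid handling, 6 were at least 2-fold higher in members in both libraries. Beside Gpihbp1 and Cd36 these were Fabp5, a fatty acid binding protein, Pparg, a nuclear receptor for fatty acids, Angptl4, an inhibitor of lipoprotein lipase, and Scarb1, a receptor for lipoproteins. With the remaining members the count was 5 of 22, without Angptl4, and Vldlr was lower. Scarb1 was at 279 CPM in control members against 86.6 CPM in the other cells, and at 209 against 59.7 CPM in Flcn iΔEC. Lpl itself, which parenchymal cells make, was at 4.85 CPM in control members. Of 22 genes of tip cells and sprouting, 11 were higher, Esm1 of the rule included, and 10 with the remaining members. Apln, the apelin ligand, was among them, at 117 against 25.2 CPM in control and 76.8 against 3.83 CPM in Flcn iΔEC, with 37.9% of the Flcn iΔEC UMIs in 1 cell. Piezo2, a mechanosensitive channel, was at 112 against 12.2 CPM in control and 70.6 against 8.87 CPM in Flcn iΔEC.

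Basement membrane genes formed a further group. The collagen IV chains Col4a1 and Col4a2, Col13a1, Col15a1, Lama4 and Nid2 were at least 2-fold higher in both libraries, 6 of 19, and Fn1 was lower. Col13a1 is a gene of the rule. With the remaining members 8 of 19 were higher, with Lamc1 and Nid1 added, and Col18a1 and Fn1 were lower. Col4a1 was at 3218 CPM in control members against 675 CPM in the other blood endothelial cells, and at 1540 against 241 CPM in Flcn iΔEC. Col15a1 was at 567 against 108 CPM and at 225 against 25 CPM. No arterial gene was higher, and 8 of 16 were lower in both libraries, or 7 of 16 with the remaining members, which the limit on Gja5 and Sema3g bears on. Of 7 caveolar and diaphragm genes 0 were at least 2-fold higher and Ehd4 was lower, and with the remaining members Ehd1 and Ehd4 were lower. Plvap, the diaphragm protein of fenestrated capillaries, was at 1384 against 739 CPM in control and 1222 against 707 CPM in Flcn iΔEC. The 15 genes with the largest ratios held Piezo2, Kcna5, F2rl3, Thrsp and Tmem255a beside the markers, but also Lyve1 and Mmrn1, which came from the members with lymphatic UMIs. Ctrb1, a pancreatic enzyme gene, was also among them, and 1 control cell held 86.6% of its 164 UMIs there.

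Members with Esm1 differed from those without it in tip cell, arterial and venous genes. In control, 27 members had at least 2 UMIs of Esm1 and 80 had none, and in Flcn iΔEC 12 and 49. Of 7139 genes, 1.64% were at least 2-fold higher in the cells with Esm1 in both libraries and 1.51% at most 0.5-fold. Of 20 tip cell genes 10 were higher and 0 lower. Pgf was counted among the 10, although control cells held 0 UMIs of it with Esm1 and 1 without. Its control ratio thus came from the 1 count added to each sum. In Flcn iΔEC the cells with and without Esm1 held 31 and 23 Pgf UMIs. Of 14 arterial genes 6 were higher (Gja4, Hey1, Efnb2, Dll4, Cxcl12 and Unc5b) and Fbln2 and Fbln5 lower. Of 8 venous genes 0 were higher and 4 lower (Nr2f2, Aplnr, Vwf and Selp). Basement membrane genes were higher in 6 of 19, with Fn1 lower, and lipid handling genes in 0 of 17, with Lpl lower.

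The same comparison within the remaining members, with 27 against 74 control and 12 against 28 Flcn iΔEC cells and a background of 1.39% higher and 1.26% lower, gave 10 of 19 tip cell genes, 6 of 12 arterial genes and 4 of 18 basement membrane genes as higher, and the arterial gene Fbln2 as lower. Nr2f2 and Aplnr were lower, 2 of 7 venous genes, whereas Vwf was higher in the Flcn iΔEC cells with Esm1, at 184 against 71.0 CPM. Of 18 basement membrane and 15 lipid handling genes 0 were lower. Fn1 and Lpl kept few UMIs there. Fn1 had 4 with Esm1 and 12 without in control, and 2 and 9 in Flcn iΔEC. Lpl had 0 and 5 in control, and 0 and 2 in Flcn iΔEC. Hey1, a target of Notch, was at 198 against 30.7 CPM in control and 246 against 40.1 CPM in Flcn iΔEC. Gja4, a connexin of arterial endothelium, was at 342 against 62.3 CPM in control and 104 against 18.5 CPM in Flcn iΔEC. Igfbp3, an IGF binding protein, was at 776 against 116 CPM and at 998 against 205 CPM. Unc5b, a netrin receptor, was at 371 against 40.7 CPM and at 123 against 15.4 CPM. Dll4, the Notch ligand of tip cells, was at 129 against 29.9 CPM and at 142 against 55.5 CPM. In the other direction, Nr2f2, the venous transcription factor, was at 25.1 against 150 CPM in control and at 18.9 against 102 CPM in Flcn iΔEC. Aplnr was at 339 against 913 CPM and at 109 against 275 CPM. Cd36 was at 484 against 731 CPM and 341 against 636 CPM. Cells with Esm1 were 22.9% (15.7 to 31.5) of the remaining control members, against 25% (13.6 to 39.6) for Flcn iΔEC. Their median depth was 7617 UMIs against 11694 in control and 16868 against 19514 in Flcn iΔEC, so the cells with Esm1 had the lower medians.

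**Figure D3:**
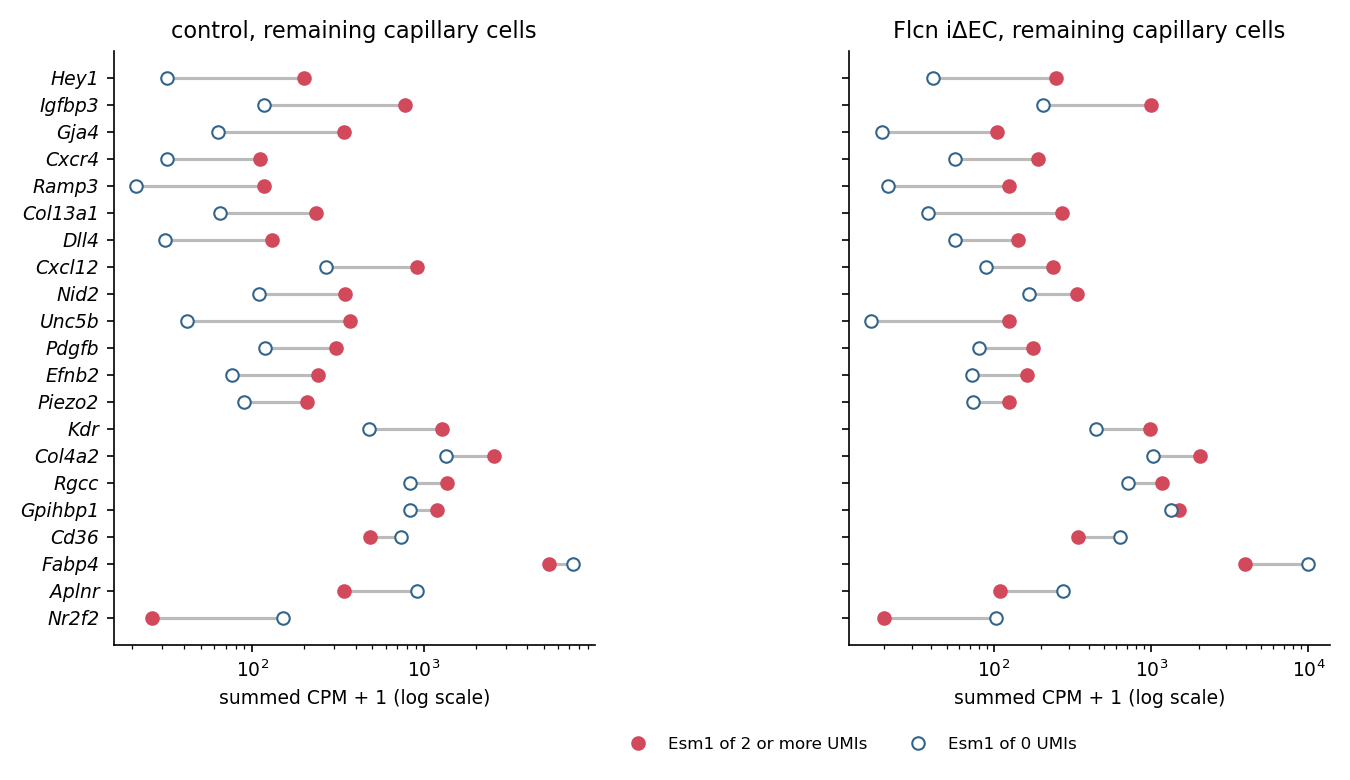
Summed level of 21 genes (CPM plus 1, logarithmic horizontal axis) in remaining members with at least 2 Esm1 UMIs (filled red) and with 0 (open blue), left for control and right for Flcn iΔEC, without error bars since each point is 1 sum over cells. Tip cell and arterial genes from Hey1 to Piezo2 lie to the right in cells with Esm1, and Nr2f2 and Aplnr lie to the left, in both libraries.

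Between the libraries, 7581 genes had at least 50 UMIs over both sets of members, of which 258 (3.4%) were at least 2-fold higher in Flcn iΔEC and 246 (3.24%) at most 0.5-fold. A ratio was taken with 1 count added to each sum, and its interval from the counts themselves. Within the remaining members 6760 genes were compared, with 167 (2.47%) higher and 200 (2.96%) lower. The median of all genes was -0.07 on the log2 scale. A list of 40 genes held lysosomal and autophagic genes and the FLCN partners Fnip1, Fnip2 and Rragc. Of its 35 measured genes 16 were at least 2-fold higher and 0 lower, with a median log2 ratio of 0.95, and 33 of the 35 had a ratio above 1. In the remaining members 12 of 34 were higher and 0 lower, with a median of 0.80. Results of these libraries were known when the list was drawn up, and its counts are not independent evidence of a direction.

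The members of the lysosomal list spanned membrane proteins, enzymes and cargo receptors. Cd63, a membrane protein of late endosomes and lysosomes (ENSMUSG00000025351, chromosome 10, 128900989 to 128912822), was at 64.1 CPM in control against 1219 CPM in Flcn iΔEC members, a ratio of 18.9 (15.8 to 23.1), and 9.50 (7.70 to 12) in the remaining members. The 11 cells with lymphatic UMIs held 4299 CPM of it, against 531 CPM in the remaining Flcn iΔEC members. The hydrolases Hexa, Ctsd and Ctsl had ratios of 4.57 (3.59 to 6.00), 3.62 (3.18 to 4.14) and 3.29 (2.98 to 3.65), and 3.60, 2.60 and 3.21 in the remaining members. Lamp1, the main lysosomal membrane glycoprotein, was at 327 and 772 CPM, a ratio of 2.36 (2.14 to 2.61). Sqstm1, an autophagy receptor, was at 73.2 and 204 CPM, a ratio of 2.77 (2.27 to 3.43). Npc2 and Asah1, which handle cholesterol and ceramide in the lysosome, had ratios of 2.49 (2.20 to 2.82) and 2.87 (2.34 to 3.58). Plin2, a coat protein of lipid droplets that the list also holds, was at 47.4 and 289 CPM, a ratio of 6.05 (4.85 to 7.76), and 7.53 in the remaining members. Grn, a lysosomal growth factor precursor, had 2.15 (1.83 to 2.53), and 2.06 in the remaining members. The measured subunits of the proton pump did not reach 2-fold. Ctsz and Uvrag were the 2 genes with ratios below 1.

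**Figure D4:**
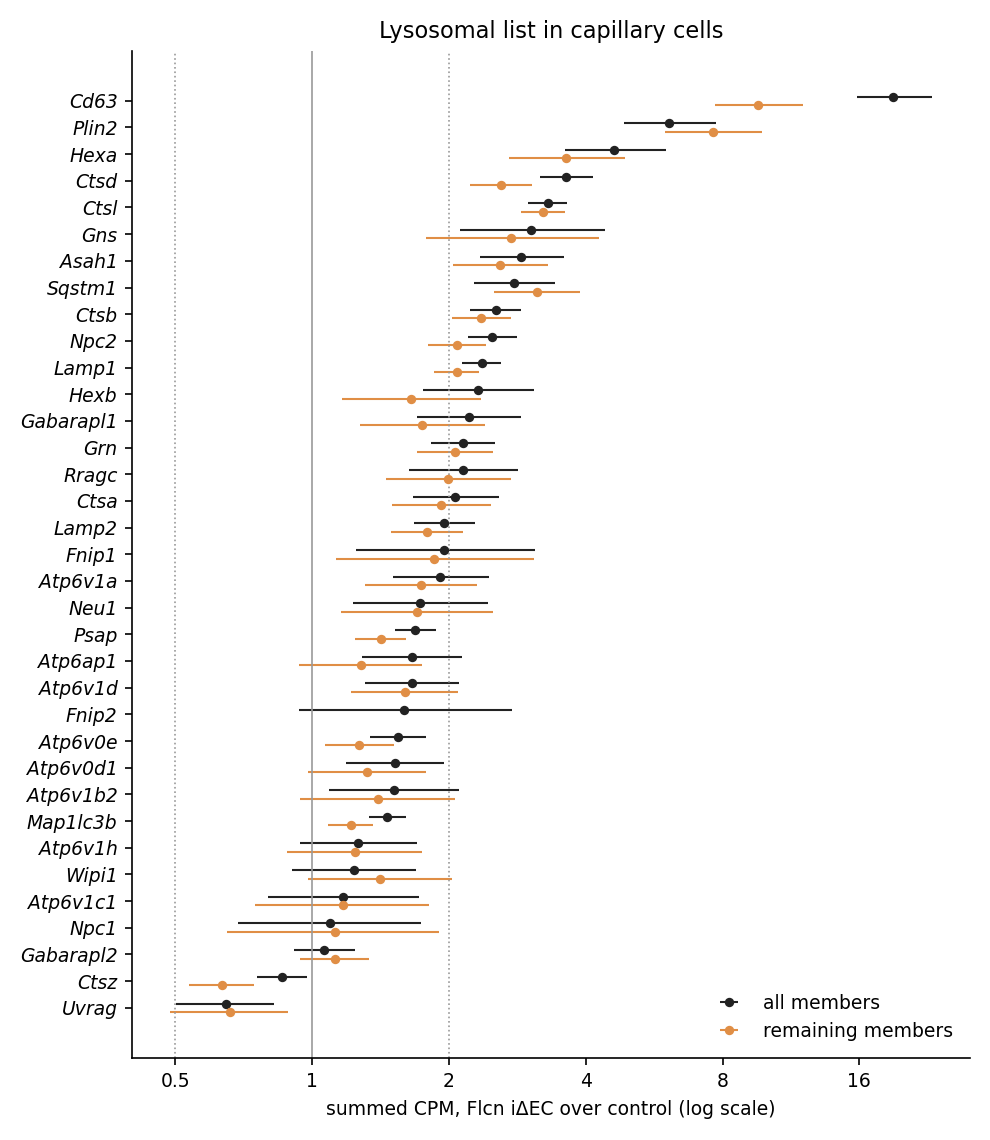
Ratio of summed CPM, Flcn iΔEC over control (logarithmic horizontal axis), for the 35 measured genes of the lysosomal list, in all members (black) and in the remaining members (orange), with exact 95% intervals for counting error and dotted lines at 0.5 and 2. Cd63 lies highest at 18.9 and 9.50, and the bulk of the genes lies between 1 and 4.

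The E-box CACGTG, and its form TCACGTG, are the letters that TFE3 and its relatives are known to bind in lysosomal genes. RefSeq promoter windows on GRCm38.p6, from 250 bases before to 50 after a start, were searched for them on both strands (CACGTG reads the same on both, and TCACGTG contains it). Of 31 genes of the lysosomal list with a window, 12 held CACGTG (38.7%) and 11 TCACGTG (35.5%), against 8.09% and 4.29% of all 27025 genes with a window. The list was drawn up around lysosomal genes known for these letters, so its excess over all genes was built in and is no test. Among listed genes with a window, 9 were at least 2-fold higher in all and in the remaining members. Of these 9, 4 held CACGTG (44.4%) and 3 TCACGTG (33.3%), against the 38.7% and 35.5% of the list. The windows of the 4 genes with CACGTG are shown because they belong to genes named above or below. Cd63, Hexa, Grn, Npc2 and Sqstm1 had no match in their windows. Gdf15 held the letters in 1 of its 2 windows, which is shown as well. Capitals mark CACGTG with a T before it or an A after it where present, and all sequences run 5′ to 3′ on the strand of the gene. Lamp1 is at chr8:13158911-13159210 on the plus strand, Ctsd at chr7:142387778-142388077, Plin2 at chr4:86670010-86670309, Ctsl at chr13:64370471-64370770 and Gdf15 at chr8:70632046-70632345, all on the minus strand.
Lamp1: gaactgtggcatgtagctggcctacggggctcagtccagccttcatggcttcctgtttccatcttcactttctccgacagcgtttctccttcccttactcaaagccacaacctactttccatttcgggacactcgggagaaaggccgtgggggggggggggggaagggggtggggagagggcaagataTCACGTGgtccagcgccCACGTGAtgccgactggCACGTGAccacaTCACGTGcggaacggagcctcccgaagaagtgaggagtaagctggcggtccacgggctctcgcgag
Ctsd: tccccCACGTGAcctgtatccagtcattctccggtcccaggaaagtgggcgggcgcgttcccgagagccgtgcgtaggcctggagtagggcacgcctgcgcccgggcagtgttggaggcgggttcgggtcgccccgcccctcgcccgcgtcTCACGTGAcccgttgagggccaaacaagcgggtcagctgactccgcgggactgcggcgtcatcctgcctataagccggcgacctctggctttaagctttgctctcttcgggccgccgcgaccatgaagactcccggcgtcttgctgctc
Plin2: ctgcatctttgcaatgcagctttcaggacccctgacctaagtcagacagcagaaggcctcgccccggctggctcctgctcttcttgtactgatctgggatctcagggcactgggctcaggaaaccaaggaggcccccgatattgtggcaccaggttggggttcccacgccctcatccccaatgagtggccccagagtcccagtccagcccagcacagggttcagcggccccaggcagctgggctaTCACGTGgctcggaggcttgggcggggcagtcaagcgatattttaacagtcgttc
Ctsl: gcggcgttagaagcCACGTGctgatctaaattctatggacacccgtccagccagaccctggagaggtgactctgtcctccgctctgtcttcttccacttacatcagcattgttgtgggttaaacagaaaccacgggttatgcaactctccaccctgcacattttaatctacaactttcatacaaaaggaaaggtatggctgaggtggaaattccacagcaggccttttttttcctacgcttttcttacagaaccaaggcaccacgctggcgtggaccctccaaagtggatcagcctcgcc
Gdf15: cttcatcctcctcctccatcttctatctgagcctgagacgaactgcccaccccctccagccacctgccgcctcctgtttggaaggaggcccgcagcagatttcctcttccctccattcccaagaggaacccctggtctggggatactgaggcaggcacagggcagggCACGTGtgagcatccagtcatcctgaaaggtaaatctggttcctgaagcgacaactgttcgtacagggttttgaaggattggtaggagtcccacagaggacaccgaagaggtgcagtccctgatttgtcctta
Lamp1 held 4 copies of CACGTG and Ctsd 2, while Plin2, Ctsl and Gdf15 held 1 each. A match describes the letters in a window and shows no binding.

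Outside the list, large ratios included the following genes. Gdf15, a secreted stress cytokine (chromosome 8, 70629393 to 70632456), was at 4.85 CPM in control against 365 CPM in Flcn iΔEC members, a ratio of 67.9 (39.4 to 166), and 60.9 (33.2 to 174) in the remaining members. After thinning to 5000 UMIs, 1 of 114 control members (0.877%, 0.0222 to 4.79) and 32 of 70 Flcn iΔEC members (45.7%, 33.7 to 58.1) held Gdf15, against 4.03% and 70.4% unthinned. Non-endothelial cells thinned in the same way held it in 0.122% and 2.95%, at median depths of 7324 and 8077 UMIs before thinning. Apoe, the lipid carrier, was at 384 and 2000.2 CPM, a ratio of 5.2 (4.80 to 5.65). Angptl4 was at 38.2 and 178 CPM, a ratio of 4.62 (3.59 to 6.14). Cdkn1a, the cell cycle inhibitor p21, was at 100.1 and 367 CPM, a ratio of 3.66 (3.11 to 4.35), and 5.05 in the remaining members. Ahnak2 and Uap1l1 had ratios of 46.7 (22.4 to 215) and 12 (7.58 to 22.6).

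Aplnr, the apelin receptor named above, was at 742 CPM in control against 222 CPM in Flcn iΔEC, a ratio of 0.300 (0.266 to 0.337), and 0.332 (0.289 to 0.379) in the remaining members. Cxcl12, a chemokine of arterial and capillary endothelium, was at 423 and 88.0 CPM, a ratio of 0.209 (0.173 to 0.249), and 0.306 in the remaining members. Mest, an imprinted gene of growing tissue, was at 807 and 216 CPM, a ratio of 0.268 (0.237 to 0.300), and 0.304 in the remaining members. Igf2, an imprinted growth factor, had a ratio of 0.367 (0.276 to 0.475), and 0.245 in the remaining members. Lpar4, a receptor for lysophosphatidic acid, had 0.206 (0.139 to 0.284) and Unc5b 0.477 (0.364 to 0.612). Fam198b, Dok4, Ccdc28b and Slc6a6 had ratios of 0.328, 0.330, 0.340 and 0.301, and between 0.354 and 0.435 in the remaining members.

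Among capillary genes, Rgcc, which the rule did not use, had a ratio of 0.822 (0.755 to 0.893) in the remaining members. Gpihbp1, Esm1 and Col13a1, which the rule used, had 1.34, 1.57 and 0.857. Of 15 other capillary genes, 1 was 2-fold higher and 2 lower in all members, and Car4 and Rbp7 were higher and Aplnr lower in the remaining ones. In Flcn iΔEC members 1 cell held 41.4% of the Car4 and 44.3% of the Rbp7 UMIs. Cd36 was at 684 and 379 CPM in all members and at 703 and 524 CPM in the remaining ones, a ratio of 0.746 (0.672 to 0.826). Kdr, the VEGF receptor, had 0.855 (0.772 to 0.945), Emcn 1.0 (0.919 to 1.09) and Plvap 1.07 (1.0 to 1.14). Of the lipid handling genes, Fabp5 was lower at 0.347 (0.312 to 0.385) and 0.443 in the remaining members, while Fabp4, its close relative, was at 7040 and 5542 CPM in all and at 7061 and 7900 CPM in the remaining members. Lpl passed 2-fold in all members, at 4.85 and 72.5 CPM, but was at 2.88 and 1.97 CPM in the remaining ones. Basement membrane genes had a median log2 ratio of -0.55 in all members, with Col4a1 and Col15a1 at ratios of 0.479 and 0.397, and of -0.33 in the remaining ones, where 0 of 18 were past 2-fold and Col4a1 and Col15a1 had 0.642 (0.611 to 0.674) and 0.569 (0.501 to 0.641). Of 21 tip cell genes 4 were 2-fold higher and 1 lower in all members, against 3.4% and 3.24% of all genes, with a median log2 ratio of -0.06. In the remaining members 1 of 20 was higher (Angpt2) and 1 lower (Unc5b), against 2.47% and 2.96%, with a median of 0.30. Angpt2 was at 15.1 and 85.5 CPM, a ratio of 5.52 (3.76 to 8.85), and 4.5 in the remaining members. Pgf was at 0.538 and 34.1 CPM, with 56.4% of its Flcn iΔEC UMIs in 1 cell.

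Of 14 glycolytic and 15 immediate early genes 0 were past 2-fold in either direction, with median log2 ratios of -0.09 and 0.14. Of 12 interferon genes 3 were higher (Ifit2, Ifit3 and Bst2), and in the remaining members 3 of 9 (Irf7, Bst2 and Ifi44). The shares over all genes were 3.4% and 2.47%. In non-endothelial cells 5 of 12 interferon genes were higher, with 6.49% over all genes. Their median log2 ratio was 0.73 there, against 0.41 in all members. Bst2 and Ifit3 had ratios of 1.49 and 12.7 in non-endothelial cells too. Of 11 heat shock genes 3 were higher, and 4 in the remaining members, with a median log2 ratio of 0.56 in all members. In non-endothelial cells 5 of 12 heat shock genes were higher, with a median of 0.86. Hspa1a had the largest ratio of the list in all members at 23.2 (17.2 to 33.9), which non-endothelial cells exceeded at 33.2. Its UMIs may be split with its near-identical copy Hspa1b. All 7 measured lymphatic genes were higher in all members, with a median log2 ratio of 2.18, and 11 Flcn iΔEC members held the lymphatic UMIs described above. In the remaining members 2 were measured and 1 was higher. That gene was Ccl21a, at 17.9 and 459 CPM, with at least 10 UMIs in 1 control and 5 Flcn iΔEC remaining cells. Ccl21a has near-identical copies, between which its reads could be split.

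Markers of cells outside the endothelium were compared as a check on mixed droplets and free RNA. The 12 leukocyte genes together held 2166 CPM in control against 1049 CPM in Flcn iΔEC members, with medians per cell of 146 and 89.1 CPM. Of the 8 measured, 6 were at most 0.5-fold in Flcn iΔEC, against 3.24% of all genes. In the remaining members 4 of 8 were, against 2.96% of all genes. Igkc, an immunoglobulin chain, was at 212 and 9.91 CPM. The 6 fibroblast genes held 96.9 and 7.44 CPM, and 1 control cell held 89.9% of the Col3a1 UMIs. The 7 mural genes held 91.0 and 29.7 CPM in sum, with Tagln as the measured one. The 3 platelet genes held 17.2 and 3.72 CPM, the 5 mesothelial genes 4.31 and 1.86 CPM, the 5 erythroid genes 39.3 and 60.1 CPM, and the 4 adipocyte genes 0 in both libraries. The part of these cells in the results above was not tested. Gm8797, one of the larger ratios at 9.88, had 9.41 in non-endothelial cells and so differed between the whole libraries.

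The same ratios were set beside those of arterial, venous, lymphatic and non-endothelial cells of these libraries. On the lysosomal list, 4 of 37 genes were at least 2-fold higher in arterial, 14 of 37 in venous and 16 of 40 in lymphatic cells, with median log2 ratios of 0.52, 0.79 and 0.89, against backgrounds of 2.83%, 2.55% and 3.53% of genes. In non-endothelial cells 1 of 40 was, with a median of -0.03 and a background of 6.49%. Gdf15 had ratios of 94.7 in arterial, 12.2 in venous and 90.5 in lymphatic cells, and 11 in non-endothelial cells. Apoe had 21.3, 4.85 and 7.57 in the 3 other vessel classes and 0.852 in non-endothelial cells. Plin2, at 6.05 in capillary members, had 1.91, 1.37 and 3.09. Angptl4, at 4.62, had 1.61, 1.62 and 1.82, and 2.91 in non-endothelial cells. Cdkn1a had 6.15 in arterial cells but 1.48 in venous and 1.35 in lymphatic cells. Mest lay between 0.392 and 0.474 in the other vessel classes. Cd36 had 0.224 in arterial, 0.291 in venous and 0.440 in lymphatic cells, and Fabp4 had 0.663, 0.373 and 0.298, against 0.787 in all capillary members and 1.12 in the remaining ones. These differences between classes were not tested.

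**Figure D5:**
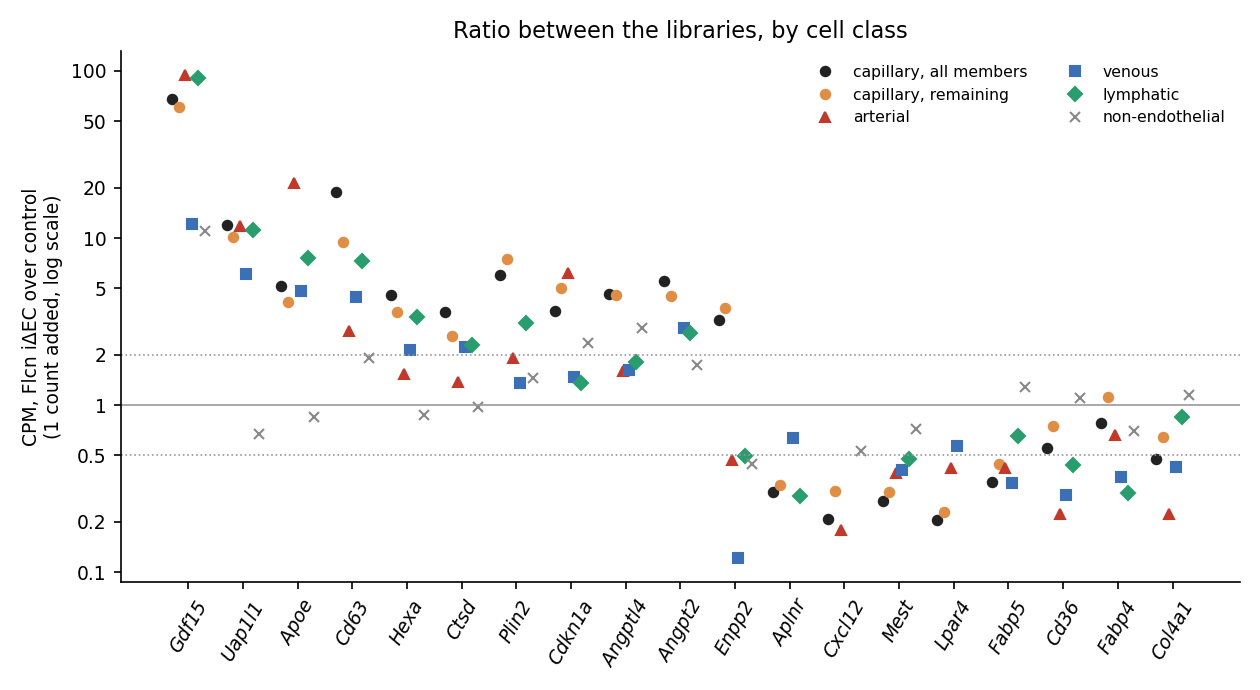
Ratio of summed CPM, Flcn iΔEC over control with 1 count added (logarithmic vertical axis), for 19 genes in all capillary members, the remaining ones and 4 other cell classes, shown where a class had at least 50 UMIs of the gene, with lines at 0.5, 1 and 2. Gdf15, Uap1l1 and Apoe lie above 2 in every vessel class and Mest below 0.5, while Plin2 and Angptl4 lie highest in capillary cells and Enpp2 above 2 in capillary cells only.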

How the data were processed

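Per the labels and the study's methods, the authors sequenced 1 Chromium 3′ v3 library per genotype and made UMI counts per gene and barcode with Cell Ranger 3.0 on mm10. The deposited counts, of 28692 genes, were used as they are, with library totals of 64639756 and 60805779 UMIs. Members were found by the rule on raw counts. Counts were summed over members per library and given as CPM. A gene was compared from 50 summed UMIs, with 1 count added, and called at a ratio of 2 or 0.5. Intervals are exact (Poisson, conditional binomial for ratios, Clopper-Pearson for shares, 95%). With 1 library per group no test was made.

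Named genes were those of the rule and the listed groups, the 10 largest ratios in each direction with at least 100 CPM in 1 library, and the 15 largest of the smaller-of-2-libraries ratios of members over other blood endothelial cells and, in each direction, of cells with Esm1 over cells without. The largest ratios in each direction within the remaining members, with the same CPM limit, were added after seeing the data. The members and lists were chosen with earlier results of these data known, and the limits that set members aside, with all counts over the remaining members, after seeing the data. Scrublet in scanpy 1.11.5 called 142 (2.08%) and 37 (0.83%) cells doublets, 4 and 0 of them members, and they were kept. On simulated counts for the capillary comparison, over 7269 unchanged genes 12 passed 2-fold, and 89 of 89 measured genes changed 4-fold were recovered. These were Poisson counts drawn from 1 pooled profile, without spread between cells, mice or libraries. The 12 genes are therefore no rate of false calls for the data. Python 3.11.15, numpy 2.4.6, scipy 1.17.1 and pandas 2.3.3 were used. Positions are from GENCODE M21. Alternatives were other limits of the rule, other count minimums, thinning and left-out doublets.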

Additional observations from a re-analysis of the deposited data

Results flagged for a closer look

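For the genes below, the ratio of Flcn iΔEC over control in capillary members and that in another cell class were past 2-fold in opposite directions, and with 1 library per genotype none of these differences was tested. Fn1, fibronectin, had 2.83 in capillary members and 0.452 in lymphatic cells, and 0.963 in the remaining members. Bmx had 3.05 against 0.425 in lymphatic cells, and 0.487 in the remaining members. Vwf had 2.36 against 0.305 in lymphatic cells, and 0.989 in the remaining members. Bmp4 had 2.20 against 0.393 in lymphatic cells, and 0.550 in the remaining members. Lyve1 had 4.54 against 0.385 in lymphatic cells, and 1.70 in the remaining members. None of these 5 genes was 2-fold higher once members with lymphatic or Vwf and Mgp UMIs were set aside.

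The other genes stayed past 2-fold there. Enpp2, the enzyme that makes lysophosphatidic acid, had 3.23 in capillary members, 0.468 in arterial, 0.121 in venous and 0.497 in lymphatic cells, and 3.82 in the remaining members. With a marker sum of at least 2 in the rule, the log2 ratio of Enpp2 in members was 0.83, below 2-fold. Rgs1 had 2.19 against 0.372 in lymphatic cells, and 3.12 in the remaining members. Ccl21a, which has near-identical copies, had 44.8 against 0.0586 in venous cells, and 24.9 in the remaining members. H2-Q7, a class I gene with a close copy in H2-Q6, had 2.83 against 0.431 in venous cells, and 3.38 in the remaining members. Cd79a, a B cell gene, had 0.276 against 2.08 in venous cells, and 0.216 in the remaining members.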

How the results depend on the processing

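No paired analysis was possible because each genotype had 1 library. No replicate could be left out for the same reason. The capillary share of endothelial cells stayed lower in Flcn iΔEC under every setting run. In Flcn iΔEC it was 6.29% with a marker sum of at least 5, 5.49% with both groups of members set aside and 11.9% on cells thinned to 5000 UMIs. Over endothelial cells with at most 1 Prox1 UMI, these were 14.2% and 12.4% for the first 2, and 22.0% in control and 9.47% in Flcn iΔEC with 2000 UMIs. The counts of genes at least 2-fold higher and lower were 405 and 511 from 20 UMIs, 92 and 52 from 200, 1770 and 1532 with no minimum, and 618 and 875 at 1.5-fold. With genes above non-endothelial cells only, 141 were lower, and with both groups of members set aside, 167 were higher. Of 107 named genes past 2-fold, 65 stayed past it and 97 kept their direction in all settings. Some of these genes were named for their large ratios in all or in the remaining members. Both are among the settings, so these counts are no independent check. Without members with lymphatic UMIs, the log2 ratio turned for Lpl (-0.58) and Thy1 (-1.66). Without both groups it turned for Fn1 (-0.054), Bmx (-1.04), Ctnnal1 (-0.69), Fgl2 (-0.75), Reln (-0.55), Vwf (-0.016), Lpl (-0.23), Bmp4 (-0.86), Thy1 (-1.30) and Fxyd6 (-1.69). The settings differ in which cells or genes enter, and no further cause was tested. Depth limits genes under 50 summed UMIs, Flcn among them.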
